A study of Mus musculus with 3 samples.

Results

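The whole small-intestinal epithelium of the *LApcL* mouse model was compared with that of wild-type (WT) mice, both taken 21 days after tamoxifen, by single-cell RNA sequencing of cells sorted for EpCAM, a surface protein of epithelial cells. A barcode, the tag that marks the RNA of 1 droplet, was kept when at least 500 genes were detected and mitochondrial transcripts made up at most 20% of its UMIs (unique molecular identifiers, 1 for each captured transcript). The limits kept 28363 barcodes, 11391 from WT and 16972 from *LApcL*, of 42055 in the 3 deposited libraries of the series. *LApcL* mice carried Lgr5-CreERT2, Apc fl/fl and Lef1 fl/fl, so that tamoxifen deleted *Apc* and *Lef1* in cells expressing the Cre recombinase from the *Lgr5* stem cell gene, and the unrecombined epithelium remained in the same library. The mice are described as C57BL/6 and were 7 to 8 weeks old at the start. By the study's methods, the Lef1 fl/fl line came from a mixed background and was backcrossed to C57BL/6. By the labels all mice, WT included, were given tamoxifen in 2 doses of 2 mg, although the methods describe 1 dose for WT mice. The label WT does not name the Cre allele, which the study's WT controls of another comparison carried. The methods give 1 mouse per group in an experiment that was repeated, and whether a library holds 1 mouse or pools the repeats is not given in the sources used here. With 1 library a side, the deletion of *Apc*, that of *Lef1*, the Cre allele and the difference between animals or preparations cannot be told apart. Nor can any strain background left from the Lef1 fl/fl line be told apart from these. Every value below describes these 2 libraries without a test.

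Apc is part of the complex that degrades β-catenin. When Apc is lost, β-catenin accumulates and joins factors of the Tcf/Lef family on DNA, which keeps the genes of the Wnt pathway on and gives rise to adenomas. Among these genes are secreted and membrane inhibitors that dampen the pathway in neighbouring or the same cells. In the normal small intestine, crypt stem cells renew absorptive enterocytes and the secretory goblet, Paneth, enteroendocrine and tuft cells.

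WT held 139712442 UMIs with a median of 9984 UMIs and 2610 genes per barcode, and *LApcL* held 189914029 UMIs with medians of 10478.5 UMIs and 2924 genes. The limits left out 62 WT and 416 *LApcL* barcodes. The libraries shared 289 barcode sequences, 2.52% of the WT and 1.66% of the *LApcL* barcodes. Levels are given as UMIs per 1000000 UMIs (CPM) of the summed barcodes, and square brackets hold exact 95% intervals, which cover counting error only. *Epcam* stood at 1449 CPM in WT and 1632 CPM in *LApcL*. A list of 15 immune genes summed to 20.5 and 23.4 CPM and a list of stromal genes to 8.28 and 6.27 CPM, so immune and stromal markers were near 0 beside *Epcam*. Other RNA was not near 0. A list of 5 erythroid genes, hemoglobin genes among them, summed to 31.9 CPM in WT and 83.7 CPM in *LApcL*. A list of gastric and pancreatic genes summed to 945 and 644 CPM. *Col1a1*, the main fibroblast collagen, had 0 UMIs in both libraries, which allows up to 0.0264 CPM in WT and 0.0194 CPM in *LApcL*.

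The targeted genes could not serve as a check of the genotype. *Lef1*, on chromosome 3 (131110471–131224356, + strand, GRCm38), gave 15 UMIs or 0.107 CPM in WT and 3.03 CPM [2.79, 3.29] in *LApcL*, and was thus higher in the library labelled as *Lef1*-deleted. *Apc* was also higher, with 16.7 CPM in WT and 32.6 CPM in *LApcL*. Transcripts were tagged at their 3′ end, and whether that end lies in the floxed part of either gene is not given in the sources used here, so these levels check nothing.

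The summed UMIs of *Sox17* and *Msx1*, the pair of genes used in the rule, divide the *LApcL* barcodes into those with and those with few or none of these transcripts. *Sox17*, which encodes an Sry-related transcription factor of endoderm and endothelium, lies on chromosome 1 (4490931–4497354, − strand) and *Msx1*, a homeobox gene, on chromosome 5 (37820485–37824583, − strand). *Sox17* was counted 8 times in WT (0.0573 CPM) and stood at 231 CPM in *LApcL*, and *Msx1* was counted 18 times in WT (0.129 CPM) and stood at 243 CPM in *LApcL*. Barcodes with 3 or more UMIs of both genes together, called Sox17/Msx1 barcodes below, numbered 9630 in *LApcL*, or 56.7% [55.99, 57.5] of the kept barcodes, and 1 in WT, or 0.00878%. The other 7342 *LApcL* barcodes are called the remaining barcodes. In 80.9% of the Sox17/Msx1 barcodes both genes were detected, and the median was 8 UMIs. Near the limit, 1202 *LApcL* barcodes held exactly 2 UMIs and 1100 exactly 3, so the limit divided a continuous range.

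Depth moved with this division. Sox17/Msx1 barcodes had a median of 12302.5 UMIs and the remaining barcodes one of 8006. When each barcode was thinned to 3000 UMIs, 20.2% of the *LApcL* barcodes still held 3 or more UMIs of the pair, and 56.8% held at least 1, against 0.079% in WT. Enterocyte-rich barcodes of *LApcL*, in which enterocyte genes gave at least 3% of UMIs, held at least 1 thinned UMI in 18.2% of cases [15.6, 20.9], at a median of 7272 UMIs before thinning. Enterocyte-rich WT barcodes held none in 1365, which allows a share of up to 0.270%. The share in all *LApcL* barcodes was thus above that in enterocyte-rich ones, and the part that free RNA took in either share was not tested. Because the remaining barcodes still carried *Sox17* at 29.5 CPM and *Msx1* at 39.7 CPM, leaving out the Sox17/Msx1 barcodes did not give an epithelium free of these transcripts.

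Across all kept barcodes, 9209 genes had a mean of 5 CPM or more over the 2 libraries. Of these, 1057 (11.5%) were at least 2-fold higher in *LApcL* and 554 (6.02%) at least 2-fold lower. After Sox17/Msx1 barcodes were left out of both libraries, 9052 genes reached that level, and 363 (4.01%) were 2-fold higher and 135 (1.49%) 2-fold lower. Of the genes 2-fold higher, 336 were shared by both comparisons, 31.8% of the first set and 92.6% of the second, and of those 2-fold lower 128 were shared, 23.1% and 94.8%. The second comparison uses the same WT barcodes but for 1, so the comparisons are not independent of each other. A gene that was almost absent from WT reached the minimum level only through *LApcL* and had to be higher there, so counts of tested members of a list are a description. The median log2 ratio of *LApcL* over WT was 0.38 over all kept barcodes and 0.23 without the Sox17/Msx1 barcodes, so a ratio of 0 lay below most genes. TMM scaling, which assumes that most genes do not differ, lowered each log2 ratio by 0.41 in the first comparison and by 0.32 in the second. It turned the counts to 476 higher and 952 lower over all kept barcodes, and to 229 and 267 without the Sox17/Msx1 barcodes. The genes in the total mattered as well, since over all kept barcodes the counts were 586 higher and 794 lower when goblet, Paneth and α-defensin genes were left out, and 1987 and 475 when ribosomal protein and mitochondrial genes were left out. Without the Sox17/Msx1 barcodes these counts were 277 and 177, and 657 and 100. Log2 ratios between 0 and these shifts therefore changed sign with the scaling.

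**Figure D1:**
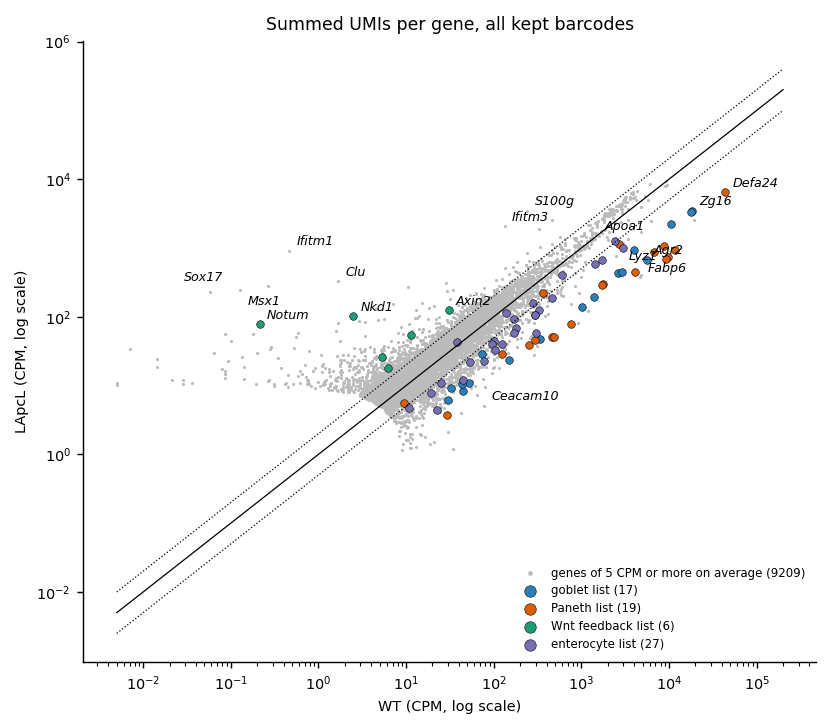
Summed level of each of the 9209 tested genes over all kept barcodes in WT (horizontal axis, CPM, log scale) and *LApcL* (vertical axis, CPM, log scale), 1 library a side; the solid line marks equal levels, the dotted lines 2-fold, colors mark 4 gene lists, and genes with 0 UMIs in WT are drawn at the left edge. Wnt feedback genes lie above the upper dotted line, goblet genes and most Paneth genes below the lower one, with *Defa24* (43624 and 6459 CPM) at the right end.

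The highest ratios among genes at 50 CPM or more in either library belonged to genes that were almost absent from WT. *Ifitm1*, an interferon-induced transmembrane gene, was counted 65 times in WT (0.465 CPM) and stood at 910 CPM in *LApcL*, a log2 ratio of 10.93 [10.58, 11.31]. *Myl9*, a myosin regulatory light chain of contractile cells, stood at 0.265 and 279 CPM. *Ly6d*, which encodes a GPI-anchored surface protein, stood at 0.0859 and 56.5 CPM. Among the 15 highest were also *Notum*, *Anxa1*, *Clu*, *Ctse*, *Cited1*, *Lgals1*, *Nkd1*, *Ecscr* and *Pgc*, besides *Sox17* and *Msx1*, with log2 ratios from 4.89 upward. They divided by where in *LApcL* they were found. *Ifitm1* (1247 CPM in Sox17/Msx1 barcodes, 257 CPM in the remaining barcodes), *Myl9* (386 and 70.0 CPM), *Cited1* (69.3 and 17.0 CPM) and *Lgals1* (110 and 24.1 CPM) were concentrated in the Sox17/Msx1 barcodes. *Ly6d* (58.7 and 52.2 CPM) and *Anxa1*, an annexin (60.8 and 46.5 CPM), were at more similar levels in both. For *Ly6d* the log2 ratio to WT was accordingly 9.36 over all kept barcodes and 9.25 without the Sox17/Msx1 barcodes.

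**Figure D2:**
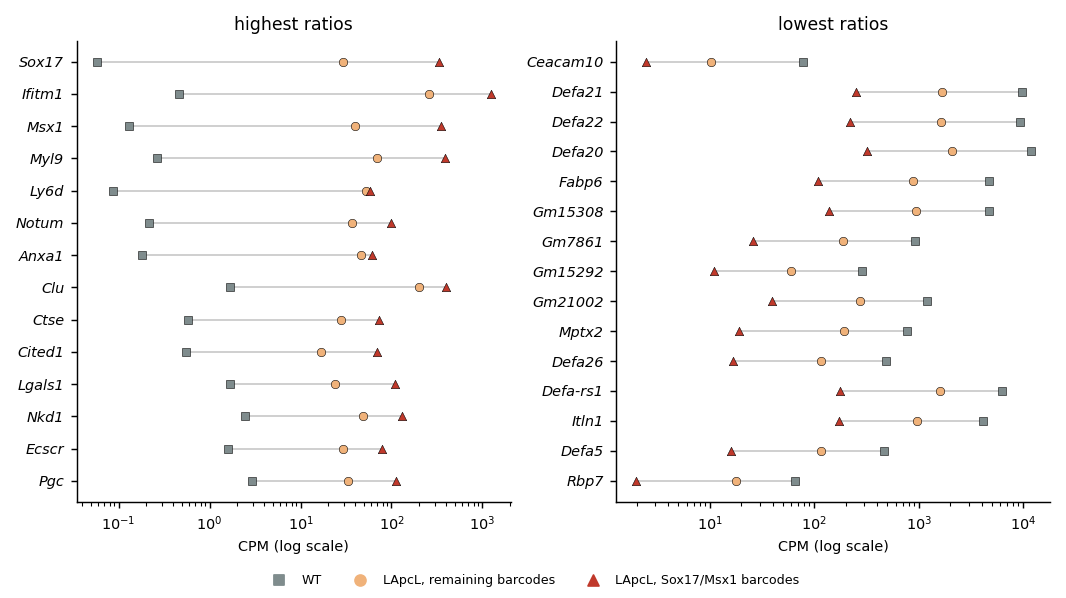
Levels (horizontal axes, CPM, log scale) of the 14 reported here of the 15 genes with the highest *LApcL* over WT ratio and of the 15 with the lowest, in WT (squares), the remaining *LApcL* barcodes (circles) and the Sox17/Msx1 barcodes (triangles); each marker is 1 sum of UMIs. Circles lie between WT and the triangles, close to the triangles for *Ly6d* and *Anxa1* on the left, and the lowest genes on the right run from *Ceacam10* (77.8 CPM in WT and 10.3 CPM in the remaining barcodes) to *Rbp7*.

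Negative regulators of the Wnt pathway that could be tested were higher in *LApcL*. Of 14 Wnt feedback genes 6 reached the minimum level, and these 6 were 2-fold higher in both comparisons, against 11.5% and 4.01% of all tested genes, with median log2 ratios of 2.29 and 1.78. *Notum* and *Nkd1* reached that level only through *LApcL*. *Notum*, a secreted enzyme that inactivates Wnt ligands, was counted 30 times in WT (0.215 CPM) and stood at 77.2 CPM in *LApcL*, 98.0 CPM in Sox17/Msx1 barcodes and 37.1 CPM in the remaining ones. *Nkd1*, an inhibitor of Dishevelled, stood at 2.48 CPM in WT and 103 CPM in *LApcL*, and *Axin2*, a scaffold of the β-catenin destruction complex, at 30.6 and 124 CPM. The ligases *Rnf43* and *Znrf3*, which remove Wnt receptors from the membrane, stood at 11.2 and 6.18 CPM in WT and at 54.8 and 18.1 CPM in *LApcL*. *Sp5*, a transcription factor gene switched on by Wnt signals, stood at 5.28 and 25.9 CPM. The lowest ratio of the group was that of *Znrf3*, 1.55 [1.45, 1.66] over all kept barcodes and 1.11 [0.97, 1.24] without the Sox17/Msx1 barcodes, the second of which dropped under 2-fold with TMM scaling (0.78).

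Among 10 tested genes of the Tcf/Lef family and its partners, 3 were 2-fold higher over all kept barcodes and 1 without the Sox17/Msx1 barcodes, where 11.5% and 4.01% of all tested genes were, and none was 2-fold lower. With so few genes, these counts give no result about the list. *Tcf7*, the family member best known from T cells, stood at 2.31 CPM in WT, 25.5 CPM in Sox17/Msx1 barcodes and 12.3 CPM in the remaining barcodes. It was the member at 2-fold in both comparisons, but it reached the minimum level only through *LApcL* and had to be higher there. *Tcf7l2*, the main Tcf of the gut epithelium, differed little, with 53.9 CPM in WT and 63.1 CPM in *LApcL*, and its log2 ratio of 0.23 turned to -0.18 with TMM scaling. *Ctnnb1*, which encodes β-catenin, had a log2 ratio of 0.65, with 166 and 260 CPM.

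Crypt stem cell genes went in different directions. Of 18 tested, 7 were 2-fold higher and 1 lower over all kept barcodes, against 11.5% and 6.02% of all tested genes, and 5 of 17 were higher and 0 lower without the Sox17/Msx1 barcodes, against 4.01% and 1.49%. *Cd44*, a hyaluronan receptor and Wnt target, stood at 13.0 CPM in WT and 124 CPM in *LApcL*, *Prox1*, a homeobox factor, at 6.14 and 36.0 CPM, and *Ascl2*, a master factor of intestinal stem cells, at 24.8 and 73.5 CPM. *Tnfrsf19*, *Ephb3*, *Mex3a* and *Axin2* were the others. *Olfm4*, a secreted marker of crypt base stem cells, was the member that was lower, at 14.0 and 3.35 CPM, and *Lgr5* itself stood at 14.8 CPM in WT and 8.91 CPM in *LApcL*. Both markers were lowest in the Sox17/Msx1 barcodes, *Olfm4* at 1.09 CPM and *Lgr5* at 6.51 CPM, while the remaining barcodes held 7.73 and 13.6 CPM. In *LApcL* mice the Cre recombinase is expressed from the *Lgr5* gene, and the part of that allele in the *Lgr5* level was not tested. *Smoc2* stood at 43.4 and 37.7 CPM, and its log2 ratio without the Sox17/Msx1 barcodes was 0.23, or -0.09 with TMM scaling.

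Genes of growth were higher per total UMIs, by an amount that depended on the scaling. Genes of cell division depended on which barcodes were counted. Of 20 genes for Myc and ribosome production, 9 were 2-fold higher and 0 lower over all kept barcodes, with a median of 0.92, and 2 were 2-fold higher without the Sox17/Msx1 barcodes, where the shares of all tested genes were 11.5% and 4.01%. The 2 were *Myc* (13.2 CPM in WT and 50.3 CPM in *LApcL*) and *Mycl* (8.98 and 37.1 CPM), and among the others were *Npm1* and *Ncl*, which encode the nucleolar proteins nucleophosmin (568 and 1463 CPM) and nucleolin (464 and 1154 CPM). The 77 ribosomal protein genes took up 18.99% of WT UMIs and 28.6% of *LApcL* UMIs, 29.7% in the Sox17/Msx1 barcodes and 26.5% in the remaining ones. Only 1 of them reached 2-fold, but their log2 ratios ran from 0.28 to 1.01 with a median of 0.60. Before TMM scaling the median over all tested genes was 0.38. With TMM scaling the ribosomal protein median became 0.19. That of the Myc and ribosome production list became 0.51, and 0.19 without the Sox17/Msx1 barcodes. The proliferation list had 5 of 20 genes 2-fold higher with a median of 0.62 over all kept barcodes, against 11.5% of all tested genes, and none at 2-fold with a median of 0.09 without the Sox17/Msx1 barcodes, where TMM scaling turned the median to -0.23. *Mcm7*, a subunit of the replicative helicase, stood at 33.4 and 73.5 CPM, whereas *Mki67*, the Ki67 antigen, stood at 74.6 and 88.6 CPM with a log2 ratio of 0.25 that became -0.16 with TMM scaling. When goblet-, Paneth- and enterocyte-rich barcodes were left out of both libraries, the median of the proliferation list over the kept barcodes was 0.03.

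Genes of the fetal and regenerating gut were higher with and without the Sox17/Msx1 barcodes. Of 14 tested, 10 and 8 were 2-fold higher and none lower, with medians of 1.47 and 1.37, against 11.5% and 4.01% of all tested genes higher. Some, such as *Anxa1* and *Il1rn*, were tested only through their level in *LApcL*. The whole list summed to 2904 CPM in WT and 3972 CPM in *LApcL*, 1.37-fold higher, so the sum moved less than the median gene. *Clu*, which encodes the secreted chaperone clusterin, stood at 1.67 CPM in WT, 399 CPM in Sox17/Msx1 barcodes and 199 CPM in the remaining barcodes. *Il1rn*, the interleukin 1 receptor antagonist, stood at 0.136 and 26.1 CPM, and *Areg*, a ligand of the EGF receptor, at 2.92 and 22.4 CPM. In contrast to *Clu*, *Areg* was not concentrated in the Sox17/Msx1 barcodes (21.7 CPM, and 23.8 CPM in the remaining ones), and *Ly6a* (Sca-1) was higher in the remaining barcodes (22.1 CPM) than in the Sox17/Msx1 barcodes (15.6 CPM) and WT (7.98 CPM).

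The list of interferon-induced genes summed to 641 CPM in WT and 4996 CPM in *LApcL*, but 3 of 12 tested genes were 2-fold higher, against 11.5% of all tested genes. These were *Ifitm1*, *Ifitm2* (324 and 1886 CPM) and *Ifitm3* (133 and 2063 CPM), which encode membrane proteins that restrict virus entry and which are also expressed without interferon in some stem and tumor cells. Of the other members, *Zbp1* and *Ifit1bl1* were 2-fold lower, at log2 ratios of -1.17 and -1.19, and the rest stayed within 2-fold. Over all tested genes, 6.02% were 2-fold lower. Without the Sox17/Msx1 barcodes, 3 of 13 were 2-fold higher and 0 lower, against 4.01% and 1.49% of all tested genes. The list median was -0.28 over all kept barcodes. It was 0.43 without the Sox17/Msx1 barcodes, or 0.11 there with TMM scaling. Small calcium-binding proteins of the S100 family were among the largest gains in CPM. *S100g*, the vitamin D-dependent calbindin of the gut, stood at 243 CPM in WT, 4762 CPM in Sox17/Msx1 barcodes and 940 CPM in the remaining ones, the largest gain of any gene, and *S100a6* at 462, 2928 and 1893 CPM. Except for these genes, the 10 largest gains were ribosomal protein genes, such as *Rps18* (3858 CPM in WT and 6424 CPM in *LApcL*).

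Genes of stomach and pancreas formed a mixed group. Of 10 tested over all kept barcodes, 8 were 2-fold higher and 2 lower, against 11.5% and 6.02% of all tested genes, and *Gkn1* and others passed the minimum level only through *LApcL*. *Gkn1*, a gastrokine of the gastric mucosa, was counted 2 times in WT and stood at 24.2 CPM in *LApcL*, with 32.0 CPM in Sox17/Msx1 barcodes and 9.02 CPM in the remaining ones. *Pgc*, the pepsinogen C gene, had the same order, at 2.91 CPM in WT, 113 CPM and 33.2 CPM. The pancreatic protease genes *Ctrb1* (5.20 CPM in WT) and *Try4* (0.759 CPM in WT) had the opposite order, with 12.6 and 3.38 CPM in the Sox17/Msx1 barcodes and 71.6 and 26.5 CPM in the remaining ones. *Clps* and *Pnliprp2*, which serve fat digestion, were lower, *Clps* at 765 CPM in WT and 155 CPM in *LApcL*, a log2 ratio of -2.30 that was 0.08 without the goblet-, Paneth- and enterocyte-rich barcodes. The erythroid list was also higher in the remaining barcodes (195 CPM) than in the Sox17/Msx1 barcodes (26.5 CPM). *Hbb-bs* stood at 17.0 CPM in WT, 14.6 CPM in Sox17/Msx1 barcodes and 80.4 CPM in the remaining ones. Its level went up and down, at 71.3, 3.92, 47.6 and 2.52 CPM in *LApcL* barcodes with 1, 2, 3 to 5 and 6 to 10 UMIs of the pair. The study's methods name an antibody against the red cell antigen Ter-119 in the sort. Whether pancreatic and red cell RNA outside the cells took part in these levels was not tested.

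Genes of the Bmp and Tgfb pathways, which restrain stem cells and drive differentiation along the villus, were called in both directions. Of 12 tested, 7 were 2-fold higher and 3 lower over all kept barcodes, against 11.5% and 6.02% of all tested genes, and 1 of 11 was higher and 1 lower without the Sox17/Msx1 barcodes, against 4.01% and 1.49%. The Bmp targets *Id1* (106 CPM in WT and 346 CPM in *LApcL*), *Id2* (46.0 and 150 CPM) and *Id3* (135 and 511 CPM) were 2-fold higher over all kept barcodes, and *Tgfbr2*, a receptor of TGF-β (4.53 and 26.8 CPM), also without the Sox17/Msx1 barcodes (2.02). The ligand genes *Bmp2* and *Bmp3* were lower, at log2 ratios of -1.70 and -1.98, as was *Bambi*, a pseudoreceptor, at -1.26, which turned to 0.17 when goblet-, Paneth- and enterocyte-rich barcodes were left out. Among 9 tested Notch pathway genes 3 were 2-fold higher and 2 lower over all kept barcodes, against the same 11.5% and 6.02%. The lower ones were *Atoh1*, the factor that commits cells to the secretory lineage (52.9 CPM in WT and 23.2 CPM in the remaining *LApcL* barcodes), and *Dll1*, a Notch ligand of secretory precursors (21.6 and 10.4 CPM), while the Notch target *Hes1* stayed within 2-fold (0.79). Of 19 tested transcription factors of gut identity, 4 were 2-fold higher and 2 lower over all kept barcodes, against 11.5% and 6.02% of all tested genes. Without the Sox17/Msx1 barcodes, 3 of 18 were higher and 0 lower, against 4.01% and 1.49%. *Sox17*, a gene of the rule, was among the higher ones both times. Over all kept barcodes, *Cdx2* and *Hnf4a* stayed within 2-fold, at log2 ratios of -0.13 and -0.37. There *Sox4* was higher (59.9 and 169 CPM), and *Klf4* was lower (94.2 and 44.3 CPM).

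**Figure D3:**
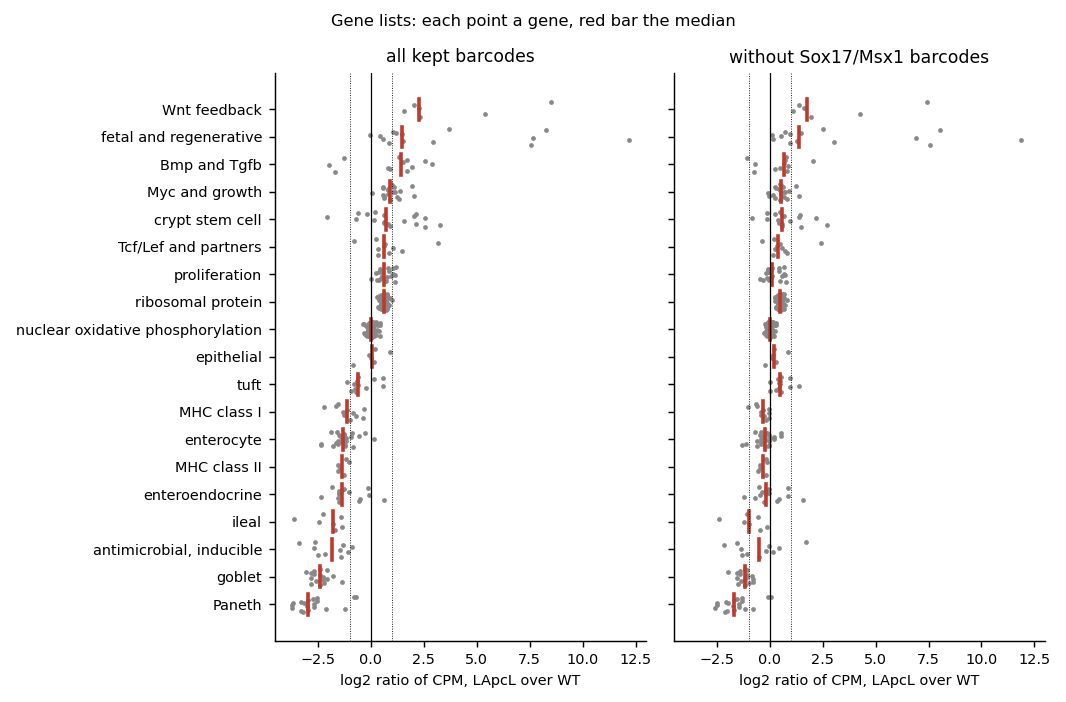
Log2 CPM ratio of *LApcL* over WT (horizontal axes) for the tested genes of 19 gene lists, over all kept barcodes on the left and without Sox17/Msx1 barcodes on the right; each point is a gene, the red bar is the median of the list, the solid line marks equal levels and the dotted lines 2-fold. Paneth and goblet genes lie farthest to the left, at medians of -2.96 and -2.42 on the left side and -1.71 and -1.18 on the right side.

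Paneth cells, at the crypt base, secrete α-defensins and lysozyme and provide signals to stem cells. Of 19 Paneth genes tested, 17 were 2-fold lower over all kept barcodes and 16 without the Sox17/Msx1 barcodes, against 6.02% and 1.49% of all tested genes. Their sum was 103034 CPM in WT, 4905 CPM in Sox17/Msx1 barcodes and 29979 CPM in the remaining ones. *Defa24*, on chromosome 8 (21734494–21735471, + strand, GRCm38), had the largest loss of any gene, with 43624 CPM in WT and 6459 CPM in *LApcL*. All 21 tested genes of the α-defensin family were lower, with log2 ratios from -3.75 to -2.29 over all kept barcodes and from -2.57 to -1.001 without the Sox17/Msx1 barcodes. The copies are so alike that reads of one may have been counted for another, so single members are uncertain. Among the lowest were *Defa20* (11790 and 920 CPM), *Defa21* (9828 and 731 CPM) and *Defa22* (9289 and 701 CPM), whereas *Defa23* stood at 254 and 38.8 CPM.

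The sequences before these genes are shown because the group moved together and because the Tcf/Lef family binds DNA at a short motif. Promoters were read from RefSeq for GRCm38.p6, and 4 of the 21 tested α-defensins had an entry. The motif ATCAAAG, or CTTTGAT on the other strand, was searched from 250 bases before to 50 bases after each start. It was held by all 4 α-defensin promoters and by 1225 of 32851 promoters in all (3.73%). *Defa20*, *Defa21* and *Defa22* each held it 112 and 72 bases before the start and *Defa23* 114 and 74 bases before it. The 250 bases before *Defa22* (chr8:21162027-21162276, + strand) were identical to those before *Defa21*, and those before *Defa20* matched them at 98% of positions. Those before *Defa23* share stretches with them around the motif, which has the same spacing, so the 4 are not separate examples. Among the 8 Wnt feedback genes with an entry only *Sp5* held the motif, 104 bases before its start, and among 7 of the 15 highest genes none did. The match describes letters in the window and is not evidence of binding. The 250 bases before the start follow, 5′ to 3′ on the gene's strand, with the motif in capitals.
Defa20, chr8:21509008-21509257 (+): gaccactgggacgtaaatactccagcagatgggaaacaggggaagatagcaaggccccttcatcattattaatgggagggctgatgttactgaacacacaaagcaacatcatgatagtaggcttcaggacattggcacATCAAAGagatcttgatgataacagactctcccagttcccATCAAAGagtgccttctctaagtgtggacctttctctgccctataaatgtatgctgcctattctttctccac
Defa21, chr8:21025295-21025544 (+): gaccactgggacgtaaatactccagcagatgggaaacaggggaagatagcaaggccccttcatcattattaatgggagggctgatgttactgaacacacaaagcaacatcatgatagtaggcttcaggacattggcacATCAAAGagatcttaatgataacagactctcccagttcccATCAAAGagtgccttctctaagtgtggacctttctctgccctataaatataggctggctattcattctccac
Defa23, chr8:21054790-21055039 (+): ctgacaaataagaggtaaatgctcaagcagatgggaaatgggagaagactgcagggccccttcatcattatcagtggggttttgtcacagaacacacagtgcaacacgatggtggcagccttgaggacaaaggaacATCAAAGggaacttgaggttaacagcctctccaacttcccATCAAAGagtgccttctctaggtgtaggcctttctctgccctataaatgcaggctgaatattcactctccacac
Sp5, chr2:70474673-70474922 (+): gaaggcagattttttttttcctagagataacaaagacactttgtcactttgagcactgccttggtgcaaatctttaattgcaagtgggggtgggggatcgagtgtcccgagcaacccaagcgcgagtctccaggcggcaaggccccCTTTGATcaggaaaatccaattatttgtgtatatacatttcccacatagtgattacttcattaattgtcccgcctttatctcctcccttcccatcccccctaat

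Not all Paneth genes followed the α-defensins. *Lyz1*, which encodes lysozyme, stood at 2716 CPM in WT, 933 CPM in Sox17/Msx1 barcodes and 1548 CPM in the remaining ones, a log2 ratio of -1.25 over all kept barcodes. That direction rested on how barcodes were counted, as the log2 ratio was 0.10 when every barcode was weighted equally and 2.22 when goblet-, Paneth- and enterocyte-rich barcodes were left out of both libraries. *Mmp7*, the protease that activates α-defensins, stood at 364, 163 and 343 CPM, and was not 2-fold lower in either comparison (-0.70 and -0.09). *Itln1*, an intelectin, was lower with the defensins, at 4139 CPM in WT and 446 CPM in *LApcL*. Barcodes in which Paneth genes gave at least 10% of UMIs made up 5.81% [5.39, 6.26] of the WT library, 1.39% [1.22, 1.58] of the *LApcL* library and 2.83% of its remaining barcodes. These limits on list shares were chosen after the data were seen. Such Paneth-rich barcodes had a median of 33206 UMIs in WT but of 11312.5 in *LApcL*. Within them *Defa24* stood at 240503 CPM in WT and 237726 CPM in *LApcL*, while *Defa20* was 1.88-fold lower in *LApcL*, *Defa21* 1.97-fold lower, *Mmp7* 1.49-fold higher and *Lyz1* 1.29-fold higher. The composition of Paneth-rich barcodes thus differed between the libraries as well as their number, and the part of their depth in this was not tested.

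Goblet genes, which serve the mucus layer, were lower in *LApcL*. All 17 in the list were tested and 2-fold lower over all kept barcodes, with a median of -2.42, and 13 without the Sox17/Msx1 barcodes, with a median of -1.18. Over all tested genes, 6.02% and 1.49% were 2-fold lower. The goblet sum was 64972 CPM in WT, 3309 CPM in Sox17/Msx1 barcodes and 28904 CPM in the remaining ones. *Zg16*, a lectin-like protein of mucus, stood at 18316 CPM in WT and 3487 CPM in *LApcL*, *Tff3*, trefoil factor 3, at 18029 and 3349 CPM, and *Muc2*, the gel-forming mucin, at 2879 and 452 CPM. *Agr2*, a disulfide isomerase needed for mucin folding, was lowest relative to WT, at 5561 and 673 CPM (-3.05), and *Spdef*, a factor of goblet maturation, stood at 43.6 and 10.4 CPM. Goblet-rich barcodes, with at least 5% of UMIs from the list, made up 34.9% [34.1, 35.8] of WT and 7.35% [6.96, 7.75] of *LApcL*, and 15.2% of the remaining *LApcL* barcodes. Within goblet-rich barcodes *Zg16* stood at 58021 and 56807 CPM, but *Agr2* at 16957 CPM in WT and 7894 CPM in *LApcL*, 2.15-fold lower. In summed barcodes, fewer cells of a type and less RNA per cell cannot be told apart.

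Enterocyte genes were lower over all kept barcodes, and most lay within 2-fold of WT in the remaining barcodes. Of 27 tested, 21 were 2-fold lower over all kept barcodes (median -1.31) and 2 without the Sox17/Msx1 barcodes (median -0.24), against 6.02% and 1.49% of all tested genes. The fatty acid-binding proteins *Fabp1* (1699 CPM in WT and 673 CPM in *LApcL*) and *Fabp2* (2960 and 1013 CPM) were among the 21, and in the remaining barcodes they stood at 1469 and 2242 CPM. *Alpi*, the intestinal alkaline phosphatase, stood at 102 CPM in WT and 101 CPM in the remaining barcodes. The 2 that were also lower there were *Sis*, the sucrase-isomaltase of the brush border (303 CPM in WT and 139 CPM in the remaining barcodes), and *Slc2a2*, a glucose transporter (22.4 and 8.92 CPM). *Apoa4*, an apolipoprotein of chylomicrons, lay on the other side, at 604 CPM in WT and 883 CPM in the remaining barcodes. Enterocyte-rich barcodes made up 12.0% [11.4, 12.6] of WT, 5.17% [4.84, 5.52] of *LApcL* and 10.9% [10.2, 11.6] of the remaining *LApcL* barcodes.

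Ileal genes were lower beyond this. All 7 tested were 2-fold lower over all kept barcodes, with a median of -1.77, and 3 without the Sox17/Msx1 barcodes, with a median of -0.98, beside 6.02% and 1.49% of all tested genes. *Fabp6*, the bile acid-binding protein of ileal enterocytes, stood at 4721 CPM in WT, 109 CPM in Sox17/Msx1 barcodes and 891 CPM in the remaining ones. *Slc51a* and *Slc51b*, which form the transporter that exports bile acids to the blood, stood at 146 and 97.1 CPM in WT and at 70.0 and 42.4 CPM in the remaining barcodes. *Nr1h4*, the bile acid receptor FXR, stood at 22.6 and 20.8 CPM. Unlike these genes, *Cybrd1*, the duodenal ferric reductase, stood at 1.08 CPM in WT, 25.7 CPM in Sox17/Msx1 barcodes and 31.8 CPM in the remaining ones. *Cybrd1* reached the minimum level only through *LApcL* and had to be higher there. It was the only one of 9 tested duodenal and iron genes that was 2-fold higher over all kept barcodes, near the 11.5% of all tested genes. *Heph*, which encodes the iron oxidase hephaestin, was the only one that was 2-fold lower, beside 6.02% of all tested genes. Without the Sox17/Msx1 barcodes, 2 of 9 were 2-fold higher and 0 lower, against 4.01% and 1.49% of all tested genes. The 2 were *Cybrd1* and *Slc11a2*, an iron importer (14.1 CPM in WT and 30.4 CPM). The median of the list there was 0.10, or -0.22 with TMM scaling. The ileal share of the tissue that went into each library is not given in the sources used here, so its part in these values was not tested.

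**Figure D4:**
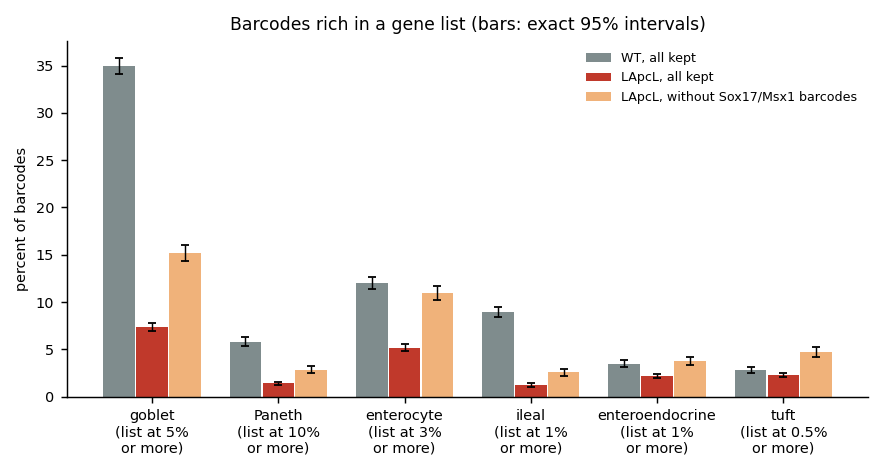
Share of barcodes (vertical axis, %) in which a gene list gave at least the stated share of UMIs, in WT (gray), in *LApcL* (red) and in the remaining *LApcL* barcodes (orange), with exact 95% intervals for counting error. The goblet bar is 34.9% in WT, 7.35% in *LApcL* and 15.2% in the remaining barcodes, and the tuft bar is highest in the remaining barcodes (4.69%).

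Genes of enteroendocrine cells, hormone genes among them, were mostly lower over all kept barcodes, with 10 of 15 tested 2-fold lower, against 6.02% of all tested genes. *Gip*, which encodes the incretin of the upper gut, stood at 998 CPM in WT and 385 CPM in *LApcL*, *Ghrl*, the ghrelin gene, at 265 and 51.7 CPM, and *Sst*, the somatostatin gene, at 289 and 81.4 CPM. The granule protein gene *Chga* differed less, at 65.5 and 58.5 CPM. In the remaining barcodes *Gip* (876 CPM) was near its WT level and *Chga* (117 CPM) above it, and of 16 genes 1, *Ghrl*, was 2-fold lower and 1, *Scg5*, which encodes a secretory granule protein, 2-fold higher (4.16 CPM in WT and 12.5 CPM), against 1.49% and 4.01% of all tested genes. Enteroendocrine-rich barcodes made up 3.48% [3.15, 3.83] of WT, 2.20% [1.99, 2.44] of *LApcL* and 3.77% [3.35, 4.23] of the remaining barcodes. Tuft cells, which sense parasites and luminal chemicals, had 1 of 12 tested genes 2-fold lower over all kept barcodes, near the 6.02% of all tested genes. Without the Sox17/Msx1 barcodes, 1 of 13 was 2-fold higher and none lower, against 4.01% and 1.49% of all tested genes. With so few genes, these tuft counts give no result about the list. The tuft median there was 0.48, or 0.15 with TMM scaling. *Dclk1*, a tuft marker kinase, stood at 20.6 CPM in WT, 4.16 CPM in Sox17/Msx1 barcodes and 27.4 CPM in the remaining ones. Tuft-rich barcodes made up 2.77% [2.47, 3.08] of WT, 2.30% [2.08, 2.54] of *LApcL* and 4.69% [4.21, 5.19] of the remaining barcodes.

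Defense genes of the epithelium were lower over all kept barcodes. Over all tested genes 6.02% were 2-fold lower, and 1.49% without the Sox17/Msx1 barcodes. Of 10 inducible antimicrobial genes, 9 were 2-fold lower, and 5 of 11 without the Sox17/Msx1 barcodes. In that second comparison 1 of the 11, *Retnlb*, the goblet product RELMβ, was 2-fold higher (1.72), against 4.01% of all tested genes. The lectins *Reg3b* (4817 CPM in WT and 1735 CPM in *LApcL*) and *Reg3g* (2965 and 1192 CPM) were near WT in the remaining barcodes, at 4274 and 2865 CPM. *Saa1*, a serum amyloid A gene (42.0 and 9.43 CPM), and *Duox2*, a peroxide-forming oxidase (27.1 and 10.9 CPM), were lower there too. All 6 MHC class II genes, which present antigen, were 2-fold lower over all kept barcodes and none was without the Sox17/Msx1 barcodes. *Cd74*, the invariant chain, stood at 459 CPM in WT, 95.5 CPM in Sox17/Msx1 barcodes and 412 CPM in the remaining ones. Of 11 MHC class I genes, 6 were 2-fold lower over all kept barcodes and 1, *H2-Q1*, without the Sox17/Msx1 barcodes. *B2m*, the shared light chain, stood at 850, 260 and 753 CPM in the same order.

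Among the *LApcL* barcodes the levels followed the number of *Sox17* and *Msx1* UMIs in different ways. *Ifitm1* stood at 134 CPM in barcodes with 0 such UMIs and at 1825 CPM in those with more than 20, and *S100g* at 580 and 6570 CPM. The goblet sum went the other way, at 37598 and 1638 CPM, as did the enterocyte sum, at 14824 and 1307 CPM. *Ly6d* was highest in between, at 28.7, 88.5 and 27.2 CPM in barcodes with 0, 3 to 5 and more than 20 such UMIs. Even barcodes with 0 UMIs of the pair held *Notum* at 20.7 CPM, against 0.215 CPM in WT. The median depth also went up along this order, at 7614 UMIs in barcodes with 0 and 17759 UMIs in those with more than 20, so its part in these levels was not tested.

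**Figure D5:**
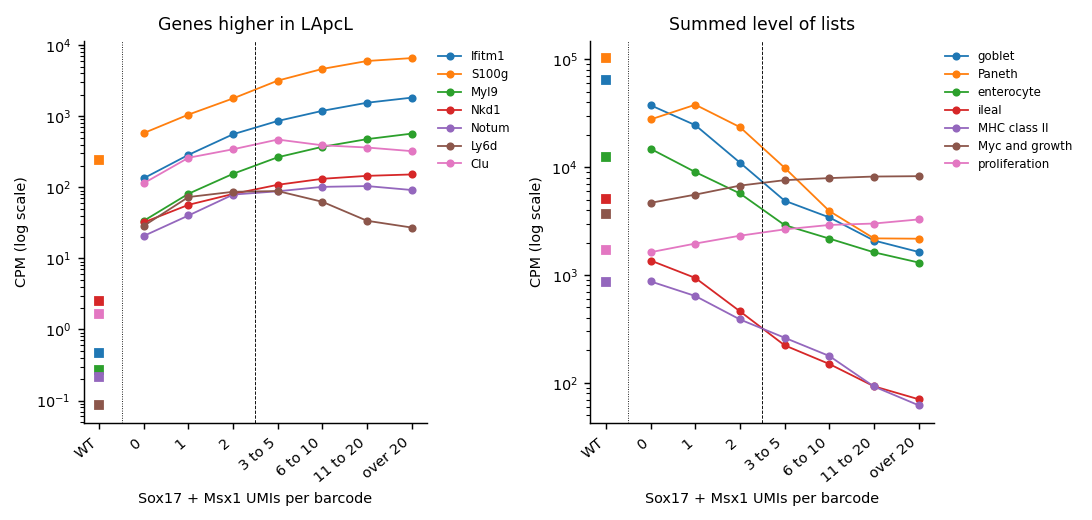
Levels (vertical axes, CPM, log scale) of 7 genes on the left and of 7 summed gene lists on the right, in WT (squares) and in *LApcL* barcodes grouped by their summed *Sox17* and *Msx1* UMIs (circles, horizontal axis); the dashed line marks the limit of 3 UMIs. *Ifitm1* and *S100g* go up from left to right, the goblet and enterocyte sums go down, and *Ly6d* is highest at 3 to 5 UMIs.

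Stress genes differed between the libraries in both directions. The heat shock genes *Hspa1a* (34.5 CPM in WT and 1.19 CPM in *LApcL*) and *Hspa1b* (18.9 and 1.44 CPM) were lower, and to the same degree with and without the Sox17/Msx1 barcodes (-4.86 and -5.08 for *Hspa1a*). *Jun* (29.5 and 89.7 CPM) and *Egr1* (7.49 and 22.5 CPM), immediate early genes that also respond to tissue dissociation, were higher in both comparisons. The 13 mitochondrially encoded genes and 75 nuclear genes of oxidative phosphorylation had no member at 2-fold, and their medians over all kept barcodes were -0.16 and -0.01.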

How the data were processed

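Epithelial cells of the small intestine were sorted for EpCAM and run on the 10x Genomics 3′ platform, with reagent kit v2 or v3 (which of them was used for a library is not given in the sources used here). The authors deposited 1 matrix of raw UMI counts per library. The submitters' processing notes name Cell Ranger 2.1.1 and the builds mm10 and GRCm38. No cell annotation was used.

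Barcodes with at least 500 genes and at most 20% mitochondrial UMIs were kept, and the counts were summed per gene and scaled to CPM over 27998 genes, or, as an alternative, by TMM (edgeR 4.0.16, R 4.3.3). Duplicated gene symbols (65) were kept apart by identifier. A gene was tested against the 2-fold limit at a mean of 5 CPM. Levels have exact Poisson intervals, log2 ratios exact conditional binomial intervals and shares Clopper-Pearson intervals (scipy 1.17.1, Python 3.11.15), which take each UMI as 1 molecule and cover counting error only. With 1 library per group no test was made. Doublets were kept, and Scrublet (scanpy 1.11.5) was an alternative. Barcodes rich in a list were taken above a share of UMIs, with limits of 5% for goblet, 10% for Paneth, 3% for enterocyte, 1% for enteroendocrine and ileal and 0.5% for tuft genes. Named genes are members of the 33 gene lists, the targeted genes, the 15 highest and 15 lowest ratios at 50 CPM or more (10 each without Sox17/Msx1 barcodes), and the 10 largest gains and losses. The barcodes, gene lists and limits were chosen with earlier results of these data known. Gene positions follow GENCODE M21 and promoters RefSeq. Some named genes are not reported here. The interval calculation was tested on simulated counts.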

Additional observations from a re-analysis of the deposited data

Results flagged for a closer look

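Barcodes that the limits on genes and mitochondrial UMIs had left out also held *Sox17* and *Msx1* transcripts. In *LApcL*, 24 of 416 such barcodes, or 5.77% [3.73, 8.46], held 3 or more UMIs of the pair, at a median of 3414 UMIs per barcode. In WT none of 62 did, which allows a share of up to 5.78%, so the *LApcL* share lies within what the small number of WT barcodes allows. These barcodes drew attention because they lie outside the comparison and some of them held the pair. Among the kept *LApcL* barcodes the share was 56.7%.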

How the results depend on the processing

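Counts of genes past 2-fold depended on scaling, on the minimum level and on the barcodes, and their causes were not tested. Over all kept barcodes, the 1057 higher and 554 lower genes became 476 and 952 with TMM scaling, 3840 and 1405 with a minimum of 10 UMIs, and 170 and 172 with a minimum mean of 50 CPM. They became 1987 and 475 without ribosomal protein and mitochondrial genes, 586 and 794 without goblet, Paneth and α-defensin genes, and 652 and 635 without goblet-, Paneth- and enterocyte-rich barcodes, so higher genes outnumbered lower ones only in some settings. Without the Sox17/Msx1 barcodes, the 363 higher and 135 lower genes became 229 and 267 with TMM scaling, 2399 and 480 with 10 UMIs, and 36 and 52 at 50 CPM. They became 657 and 100 without ribosomal protein and mitochondrial genes, 245 and 84 at a limit of 1 *Sox17* and *Msx1* UMI and 354 and 215 without rich barcodes. The share of Sox17/Msx1 barcodes was 76.0%, 63.8% and 44.3% at limits of 1, 2 and 5 UMIs, 58.5% with a mitochondrial limit of 10%, 54.8% with doublets removed and 20.2% when thinned to 3000 UMIs. Of 53 such values 29 stayed within 1.5 times the reported count or within the counting interval of the share. *Lyz1* changed sign when barcodes were weighted equally (0.10), and, without rich barcodes, *Lyz1* (2.22), *Bambi* (0.17) and *Clps* (0.078) did so over all kept barcodes and *Bambi* (0.090) and *Clps* (1.22) without the Sox17/Msx1 barcodes. No other named gene past 2-fold changed sign. Leaving out goblet, Paneth and defensin genes, leaving out rich barcodes, and moving the limits of rich barcodes were chosen after seeing the data. No paired analysis was possible because each group has 1 library, which also leaves the variation between mice unmeasured at any depth.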

Other observations

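Genes of amino acid supply and stress were split between the libraries over all kept barcodes. Of 9 tested, 3 were 2-fold higher in *LApcL* and 2 were 2-fold lower, against 11.5% and 6.02% of all tested genes, and without the Sox17/Msx1 barcodes 1 was higher and 1 lower, against 4.01% and 1.49%. *Phgdh*, which catalyzes the entry step of serine synthesis, stood at 23.5 CPM in WT, 96.8 CPM in Sox17/Msx1 barcodes and 47.9 CPM in the remaining ones. *Xist*, the RNA of the inactive X chromosome, stood at 691 CPM in WT and 927 CPM in *LApcL*, a log2 ratio of 0.43, or 0.02 with TMM scaling.

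The *Lgr5*-driven deletion of *Apc* without that of *Lef1* was sampled in another library, *LApc*, taken at day 29 and not day 21, so its values are given side by side and not compared. It held 10864 kept barcodes at a median of 6292 UMIs. Of these, 513 (4.72%) held 3 or more *Sox17* and *Msx1* UMIs. Goblet-rich barcodes made up 19.6% of the *LApc* library, Paneth-rich barcodes 1.72% and enterocyte-rich barcodes 24.8%. Within its Paneth-rich barcodes *Defa20* stood at 33515 CPM, beside 66903 CPM in WT and 35521 CPM in *LApcL*, and *Lyz1* at 13558 CPM, beside 15369 and 19769 CPM.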
